A study of Mus musculus with 13 samples.

Results

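Vessel calibre is set in part by peptides, gases and lipids made in and around the vessel wall, and 10 genes that make or receive these signals were followed in perivascular adipose tissue of recipient mice, a fat depot that lies along the vessels. The 10 were the angiotensin genes Agt, Ace and Agtr1a, the endothelin genes Edn1, Ednra and Ednrb, the endothelial nitric oxide synthase gene Nos3, and the prostanoid genes Ptgs1, Ptgs2 and Ptgis. They were chosen by name as genes of vascular tone, and all 10 were found among the 34013 genes of the count table. Bulk mRNA sequencing covered 13 libraries of tissue labelled C57BL/6. NTS-R were 3 libraries from recipients of splenocytes from Nlrp3 knockout donors with type 2 diabetes (T2DM). TS-R were 4 libraries from recipients of splenocytes from T2DM donors. NS-R were 3 libraries from recipients of splenocytes from Nlrp3 knockout donors. WTS-R were 3 libraries from recipients of splenocytes from wild-type donors. All 4 groups therefore shared the transfer itself, and no recipient without a transfer was analysed. Nlrp3 encodes the sensor of an inflammasome, a complex that activates interleukin-1 beta and interleukin-18. The labels give neither the donors' diabetes model nor the dose of cells, the time after transfer, sex, age, batch or pooling of animals, and their genotype entry does not say whether it describes donor or recipient. Nothing in the labels says that each library came from its own animal. The tests therefore measure the spread between these samples, and how much of it is technical is not known.

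Angiotensinogen, encoded by Agt, is cut by renin and then by angiotensin-converting enzyme (Ace) to angiotensin II, which constricts vessels through the type 1 receptor encoded in the mouse mainly by Agtr1a. Endothelin-1 (Edn1) constricts through the A receptor (Ednra) on smooth muscle, while the B receptor (Ednrb) on endothelium releases nitric oxide and clears the peptide. Nitric oxide from Nos3 raises cyclic GMP in smooth muscle and relaxes it. The cyclooxygenases Ptgs1, known as the steadily expressed form, and Ptgs2, known as the inducible form, make prostaglandin H, which prostacyclin synthase (Ptgis) turns into the vasodilator prostacyclin. Perivascular fat is known as a local source of several of these signals, angiotensinogen among them.

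Library totals ran between 14216706 and 37011122 counts, so that 3 counts corresponded to between 0.0811 and 0.211 CPM, the counts-per-million scale that sets a gene's counts against its library's total. Fold changes were fitted with TMM scaling, which corrects for composition and had its highest factors in TS-R (1.055 to 1.212, against 0.899 to 0.981 in WTS-R), so a fold change of TS-R can lie below the ratio of the printed CPM. Adipocyte markers were abundant in every library, with a summed level between 5967 and 21872 CPM over 7 of 7 genes. Several libraries stood apart from the rest of their group. Airway epithelial markers summed to 5999 CPM in NS-R 1 and 11562 CPM in NS-R 2, with 6 of 6 genes detected in each, and to between 0 and 1.09 CPM in the other 11 libraries. In TS-R 3, B cell markers summed to 2199 CPM, against 6.21 to 427.4 CPM elsewhere, and its adipocyte sum of 5967 CPM was the lowest of the 13. Skeletal muscle markers summed to 9653 CPM in TS-R 1, against 10.7 to 1623 CPM elsewhere. Xist, the RNA of the inactive X chromosome, reached 805.4 CPM in TS-R 3 and 459.5 CPM in NS-R 3 and stood at 0.352 CPM or less in the other 11 libraries, so the groups mixed libraries with and without it. Nlrp3 stood at 0.352 to 1.22 CPM in NTS-R, 0.537 to 3.55 CPM in TS-R, 0.456 to 1.36 CPM in NS-R and 0.226 to 0.693 CPM in WTS-R, with TS-R 3 the highest. In bulk tissue, fewer cells of a type and less RNA per cell cannot be told apart.

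None of the 10 genes passed an FDR of 0.05 in edgeR's quasi-likelihood test in any of the 4 pairwise comparisons or in the interaction, which asks whether the NTS-R minus NS-R difference departed from the TS-R minus WTS-R difference. The same test called 0% of the 17270 genes tested in each of the 5. At an unadjusted p under 0.05, edgeR marked 0 of the 10 genes in TS-R against WTS-R, where it marked 22.3% of all genes. It marked 2 of 10 in NTS-R against TS-R, beside 19.7% of all genes, 1 of 10 in NS-R against WTS-R, beside 5.31%, 2 of 10 in NTS-R against NS-R, beside 6.36%, and 1 of 10 in the interaction, beside 18.3%. The comparisons share libraries with one another, since each group enters at least 2 of them.

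Other tools differed from edgeR in the genes they called. DESeq2 called 0 of the 10 in TS-R against WTS-R, beside 11.1% of all genes, 0 of 10 in NTS-R against TS-R, beside 8.29%, and 0 of 10 in the interaction, beside 6.3%. It called 1 of 10, Ptgs2, in NS-R against WTS-R, beside 1.1% of all genes, and again 1 of 10, Ptgs2, in NTS-R against NS-R, beside 1.24%. With limma's voom and quality weights none of the 10 was called, although 22.1% of all genes were called in TS-R against WTS-R, 9.48% in NTS-R against TS-R, 0.0811% in NS-R against WTS-R, 0.0695% in NTS-R against NS-R and 10.8% in the interaction. None of the 10 genes had CPM without overlap between the groups in TS-R against WTS-R (21.6% of all genes did), NTS-R against TS-R (18%) or NS-R against WTS-R (11.8%). In NTS-R against NS-R they did not overlap for 1 of 10, Nos3, beside 13.1%.

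The order of the genes by level, per kilobase of annotated exon, was Nos3 with a median of 8.65 CPM per kb over the 13 libraries, Ednrb with 8.30, Ace with 7.09, Ptgis with 6.06, Agtr1a with 3.95, Ptgs1 with 3.63, Agt with 1.90, Edn1 with 1.52, Ednra with 1.33 and Ptgs2 with 0.219. Most neighbours in that order changed places between libraries. Nos3 lay above Ednrb in 5 of 13 libraries, Ace above Ptgis in 8, Ptgis above Agtr1a in 9, Agtr1a above Ptgs1 in 8 and Agt above Edn1 in 6. Ednrb lay above Ace in 10 of 13 libraries and Edn1 above Ednra in 11. The gaps below Ptgs1 and above Ptgs2 were the widest, with Ptgs1 above Agt in 12 of 13 libraries and Ednra above Ptgs2 in 12.

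The genes differed in how far they ranged between libraries. Ptgs2 spanned 19-fold between its lowest and highest CPM, Agt 16.1-fold and Ptgis 11.5-fold. The other 7 spanned between 1.80-fold for Ednrb and 3.05-fold for Nos3, where the median over 14923 genes with a mean of 1 CPM or more and no zero was 2.94-fold. Of those genes, 7.07% ranged wider than Ptgs2, 8% wider than Agt and 88.1% wider than Ednrb. Within groups, the SD of log2 CPM was 1.06 for Agt, 0.95 for Ptgis and 0.70 for Ptgs2, and between 0.34 and 0.41 for the other 7, beside a median of 0.37 over all those genes. TS-R 3 was the lowest library for 6 of the 10, namely Agt, Ace, Agtr1a, Edn1, Nos3 and Ptgis. It was also the library with the most lymphocyte markers and the fewest adipocyte markers, and their part in these low values was not tested.

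**Figure D1:**
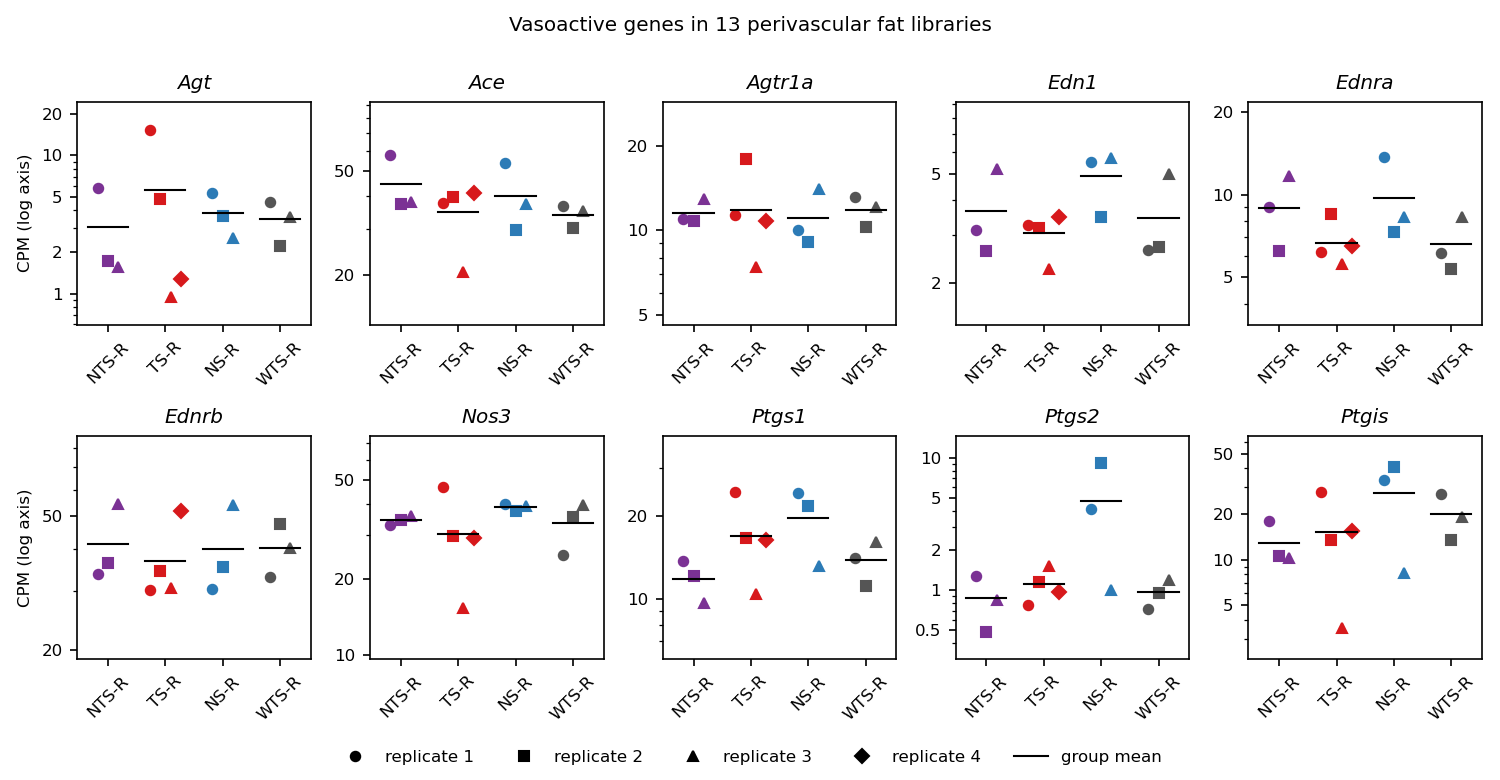
Level (CPM) of each of the 10 genes in each of the 13 libraries (1 symbol per library, its shape the replicate number, log axis), with NTS-R, TS-R, NS-R and WTS-R from left to right and a bar at each group mean. Ptgs2 lies at 4.08 and 9.18 CPM in NS-R 1 and NS-R 2 and at 1.53 CPM or less elsewhere, while Ednrb stays between 30.1 and 54.3 CPM.

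Agt (ENSMUSG00000031980), the precursor of all angiotensin peptides, had 5.85, 1.73 and 1.55 CPM in the NTS-R libraries, 15.3, 4.87, 0.955 and 1.28 CPM in TS-R, 5.38, 3.65 and 2.54 CPM in NS-R and 4.57, 2.20 and 3.59 CPM in WTS-R. TS-R held both the highest and the lowest library, and the 4 groups overlapped. TS-R 1, the highest library, also had the highest summed adipocyte level, 21872 CPM, and the highest skeletal muscle level, 9653 CPM. Their part in the Agt level was not tested. Agt had a log2 fold change of 0.41 ± 0.79 (SE) in TS-R against WTS-R (edgeR, FDR 0.80), with a 95% interval between -1.30 and 2.13. The value for NTS-R against TS-R was -0.61 ± 0.80 (edgeR, FDR 0.723). Both turned round without TS-R 1, to -0.79 for TS-R against WTS-R and 0.61 for NTS-R against TS-R.

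Ace (ENSMUSG00000020681), which forms angiotensin II and degrades bradykinin, had 57.8, 37.5 and 38.1 CPM in NTS-R, 37.6, 39.8, 20.6 and 41.4 CPM in TS-R, 53.8, 29.8 and 37.3 CPM in NS-R and 36.8, 30.2 and 35.1 CPM in WTS-R. TS-R 3 was the lowest library and NTS-R 1 the highest, and the other 2 NTS-R libraries lay inside the range of TS-R. In NTS-R against TS-R, Ace had a log2 fold change of 0.62 ± 0.27 (SE), with a 95% interval between 0.05 and 1.2, and missed the threshold (edgeR, FDR 0.222). That value was 0.45 without TS-R 3, 0.46 without NTS-R 1 and 0.35 on plain library totals. In TS-R against WTS-R it was -0.23 ± 0.27 (edgeR, FDR 0.651), and 0.03 on plain library totals.

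Agtr1a (ENSMUSG00000049115), the receptor through which angiotensin II constricts, was among the steadiest of the 10. It had 11.0, 10.8 and 12.9 CPM in NTS-R, 11.3, 17.9, 7.40 and 10.8 CPM in TS-R, 10, 9.12 and 14 CPM in NS-R and 13.1, 10.3 and 12.1 CPM in WTS-R. TS-R again held both ends, TS-R 2 the highest and TS-R 3 the lowest, and the group means lay within 0.11 of one another on the log2 scale. TS-R against WTS-R gave -0.26 ± 0.30 (edgeR, FDR 0.644; 0.00 on plain library totals). The 95% interval ran between -0.92 and 0.40, so a change of either sign within it is compatible with these libraries. Its close paralog Agtr1b was at 0 in 12 libraries and at 0.0671 CPM in TS-R 1.

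Edn1 (ENSMUSG00000021367), the precursor of endothelin-1, had 3.13, 2.62 and 5.21 CPM in NTS-R, 3.26, 3.18, 2.25 and 3.47 CPM in TS-R, 5.54, 3.48 and 5.73 CPM in NS-R and 2.64, 2.71 and 4.98 CPM in WTS-R. NS-R 1 and NS-R 3 were the highest libraries and TS-R 3 the lowest. Every TS-R library lay below every NS-R library, by a narrow margin between TS-R 4 and NS-R 2. That pair of groups was not among the 4 comparisons, and the share of all genes without overlap between them was not counted. The groups of the 4 comparisons overlapped. The log2 fold change was -0.44 ± 0.36 (SE) in TS-R against WTS-R (edgeR, FDR 0.497). It was 0.57 ± 0.36 in NTS-R against TS-R (edgeR, FDR 0.407) and 0.50 ± 0.38 in NS-R against WTS-R (edgeR, FDR 1).

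Ednra (ENSMUSG00000031616), the constrictor receptor of smooth muscle and heart muscle, had 9.04, 6.21 and 11.7 CPM in NTS-R, 6.17, 8.52, 5.59 and 6.49 CPM in TS-R, 13.7, 7.29 and 8.27 CPM in NS-R and 6.13, 5.36 and 8.32 CPM in WTS-R. NS-R 1 and NTS-R 3 were the highest, and NTS-R 2 lay inside the TS-R range. In NTS-R against TS-R, Ednra had a log2 fold change of 0.73 ± 0.29 (SE), with a 95% interval between 0.09 and 1.36, and missed the threshold (edgeR, FDR 0.201). That value was 0.43 without NTS-R 3, 0.43 on plain library totals and 0.25 with limma's quality weights. Cardiac muscle markers, 6 of 6 detected in every library, summed to 1689, 898.2 and 2460 CPM in NTS-R, 1290, 955.9, 252.4 and 889.2 CPM in TS-R, 2223, 1380 and 1321 CPM in NS-R and 800.9, 733.0 and 1343 CPM in WTS-R. The libraries highest in this sum were NTS-R 3 and NS-R 1, which were also the highest in Ednra, and the part of the sum in the Ednra difference was not tested.

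Ednrb (ENSMUSG00000022122), the receptor that clears endothelin-1, had 33.7, 36.4 and 54.3 CPM in NTS-R, 30.1, 34.4, 30.6 and 51.8 CPM in TS-R, 30.4, 35.4 and 53.9 CPM in NS-R and 32.9, 47.6 and 40.2 CPM in WTS-R. NTS-R 3, TS-R 4 and NS-R 3 stood above the others in their groups, and the ranges of the 4 groups nearly coincided. TS-R against WTS-R gave -0.40 ± 0.32 (edgeR, FDR 0.485), with a 95% interval between -1.08 and 0.29, and NTS-R against TS-R gave 0.47 ± 0.32 (edgeR, FDR 0.439). NS-R against WTS-R gave -0.02 ± 0.34 (edgeR, FDR 1).

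Nos3 (ENSMUSG00000028978), the endothelial nitric oxide synthase, had 32.9, 34.5 and 35.9 CPM in NTS-R, 46.9, 29.9, 15.4 and 29.2 CPM in TS-R, 39.9, 37.6 and 39.4 CPM in NS-R and 25.1, 35.7 and 39.8 CPM in WTS-R. TS-R held both ends, TS-R 1 the highest and TS-R 3 the lowest, whereas the libraries within NTS-R and within NS-R lay close together. Every NTS-R library was below every NS-R library in CPM, but the fitted difference was -0.12 ± 0.32 (edgeR, FDR 0.999), with a 95% interval between -0.81 and 0.56. TS-R against WTS-R gave -0.42 ± 0.29 (edgeR, FDR 0.425), and NTS-R against TS-R gave 0.48 ± 0.29 (edgeR, FDR 0.391).

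Because Nos3 is made mainly by endothelium, its level was also set against the summed CPM of 12 endothelial markers, all detected in every library. Nos3 equalled 2.96, 2.89 and 2.83% of that sum in NTS-R, 3, 2.24, 1.67 and 2.11% in TS-R, 2.58, 2.75 and 2.47% in NS-R and 1.92, 2.85 and 2.74% in WTS-R. On this scale every NTS-R library was above every NS-R library, the opposite of their order in CPM. The endothelial sum itself was lower in every NTS-R library (1111 to 1268 CPM) than in every NS-R library (1367 to 1598 CPM). TS-R 3 was the lowest on both scales, and its endothelial sum of 923.7 CPM was the lowest of the 13. Edn1, also an endothelial product, equalled 0.282, 0.22 and 0.41% of the sum in NTS-R, 0.208, 0.238, 0.244 and 0.25% in TS-R, 0.357, 0.254 and 0.358% in NS-R and 0.202, 0.216 and 0.343% in WTS-R, and the groups overlapped except that every TS-R library lay below every NS-R library. No test was made on these shares, and how many of all genes separate on this scale was not counted.

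Ptgs1 (ENSMUSG00000047250), the steadily expressed cyclooxygenase, had 13.7, 12.1 and 9.64 CPM in NTS-R, 24.5, 16.6, 10.4 and 16.4 CPM in TS-R, 24.3, 21.7 and 13.1 CPM in NS-R and 14.1, 11.1 and 16.1 CPM in WTS-R. TS-R 1, NS-R 1 and NS-R 2 were the 3 highest libraries. In NTS-R against NS-R, Ptgs1 had a log2 fold change of -0.67 ± 0.29 (SE), with a 95% interval between -1.29 and -0.04, and missed the threshold (edgeR, FDR 0.739). NTS-R 1, at 13.7 CPM, lay above NS-R 3, at 13.1 CPM. NS-R against WTS-R gave 0.47 ± 0.29 (edgeR, FDR 1) and TS-R against WTS-R 0.03 ± 0.27 (edgeR, FDR 0.955).

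Ptgs2 (ENSMUSG00000032487), the inducible cyclooxygenase, was the least abundant of the 10, with 7 to 161 counts per library. It had 1.28, 0.483 and 0.844 CPM in NTS-R, 0.772, 1.15, 1.53 and 0.964 CPM in TS-R, 4.08, 9.18 and 1 CPM in NS-R and 0.721, 0.96 and 1.2 CPM in WTS-R. NS-R 1 and NS-R 2 stood above all other libraries, whereas NS-R 3 lay inside the range of every other group. The log2 fold change was 2.23 ± 0.62 (SE) in NS-R against WTS-R, with a 95% interval between 0.89 and 3.56 (edgeR, FDR 0.343). It was -2.36 ± 0.62 in NTS-R against NS-R, with a 95% interval between -3.71 and -1.01 (edgeR, FDR 0.255). The interaction was -2.28 ± 0.84 (edgeR, FDR 0.19). Between TS-R and WTS-R the difference was -0.08 ± 0.57 (edgeR, FDR 0.954; 0.21 on plain library totals), and between NTS-R and TS-R it was -0.06 ± 0.58 (edgeR, FDR 0.974).

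The NS-R differences of Ptgs2 depended on single libraries. Without NS-R 2, NS-R against WTS-R was 1.34 and NTS-R against NS-R was -1.47. Leaving out NS-R 3 instead brought both past the threshold, at 2.67 (edgeR, FDR 0.00996) and -2.81 (edgeR, FDR 0.00779). NS-R 1 and NS-R 2 were the libraries that held airway markers, at 5999 and 11562 CPM, and without both of them NS-R against WTS-R stood at 0.22 while NTS-R against NS-R stood at -0.34, with the lone NS-R library assumed to vary like the other groups. Without NS-R 3 and TS-R 3 together, the libraries with Xist, Ptgs2 was at -2.81 in NTS-R against NS-R (edgeR, FDR 0.00489). In that fit and comparison, Ptgs1 at -0.83 (edgeR, FDR 0.044) and Ptgis at -1.42 (edgeR, FDR 0.0383) also passed the threshold. Every fit without NS-R 3 leaves NS-R 1 and NS-R 2, the libraries with airway markers, as the only NS-R libraries. The share of all genes called in these fits is not given here. The calls by DESeq2 were at an adjusted p of 0.0447 for NS-R against WTS-R (limma, adjusted p 0.118) and of 0.0276 for NTS-R against NS-R (limma, adjusted p 0.162).

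Ptgis (ENSMUSG00000017969), the prostacyclin synthase, had 17.9, 10.5 and 10.2 CPM in NTS-R, 28.1, 13.4, 3.55 and 15.5 CPM in TS-R, 33.5, 40.9 and 8.21 CPM in NS-R and 27.2, 13.4 and 19.1 CPM in WTS-R. NS-R 1 and NS-R 2 were the highest, TS-R 3 the lowest and NS-R 3 the second lowest, so NS-R covered most of the whole range. TS-R against WTS-R gave -0.66 ± 0.57 (edgeR, FDR 0.525), and NTS-R against NS-R gave -1.02 ± 0.62 (edgeR, FDR 0.937). Markers of mesothelium, the lining of body cavities, were detected 5 of 5 in every library and summed to 156.2, 65.3 and 53.8 CPM in NTS-R, 131.2, 96.2, 16.1 and 155.6 CPM in TS-R, 300.1, 401.2 and 43.0 CPM in NS-R and 270.0, 143.7 and 139.5 CPM in WTS-R. The same 2 libraries, NS-R 1 and NS-R 2, were highest and the same 2, TS-R 3 and NS-R 3, lowest in this sum as in Ptgis, and its part in the Ptgis level was not tested.

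**Figure D2:**
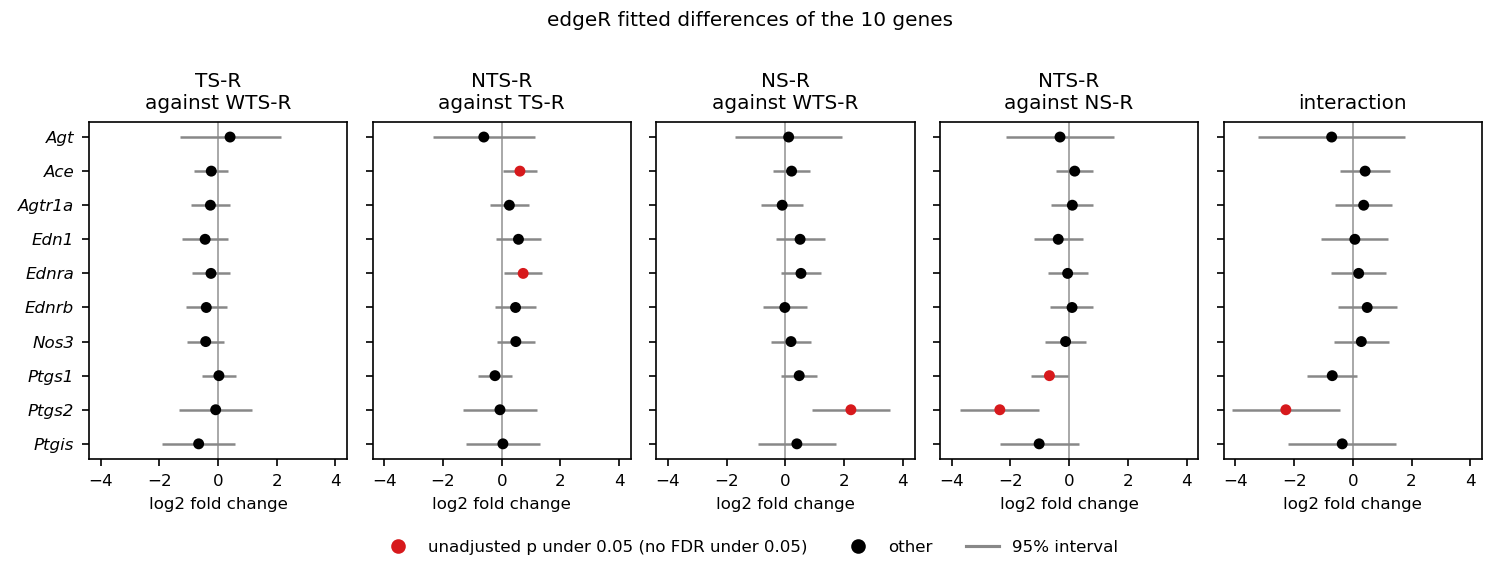
Log2 fold change of each gene (point) with its 95% interval (line) from the edgeR quasi-likelihood fit of all 13 libraries, in the 4 pairwise comparisons and the interaction, with red points at an unadjusted p under 0.05. The intervals clear 0 for Ptgs2 in the comparisons with NS-R (2.23 and -2.36) and in the interaction (-2.28), for Ace (0.62) and Ednra (0.73) in NTS-R against TS-R and for Ptgs1 (-0.67) in NTS-R against NS-R, and no gene passed an FDR of 0.05.

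**Figure D3:**
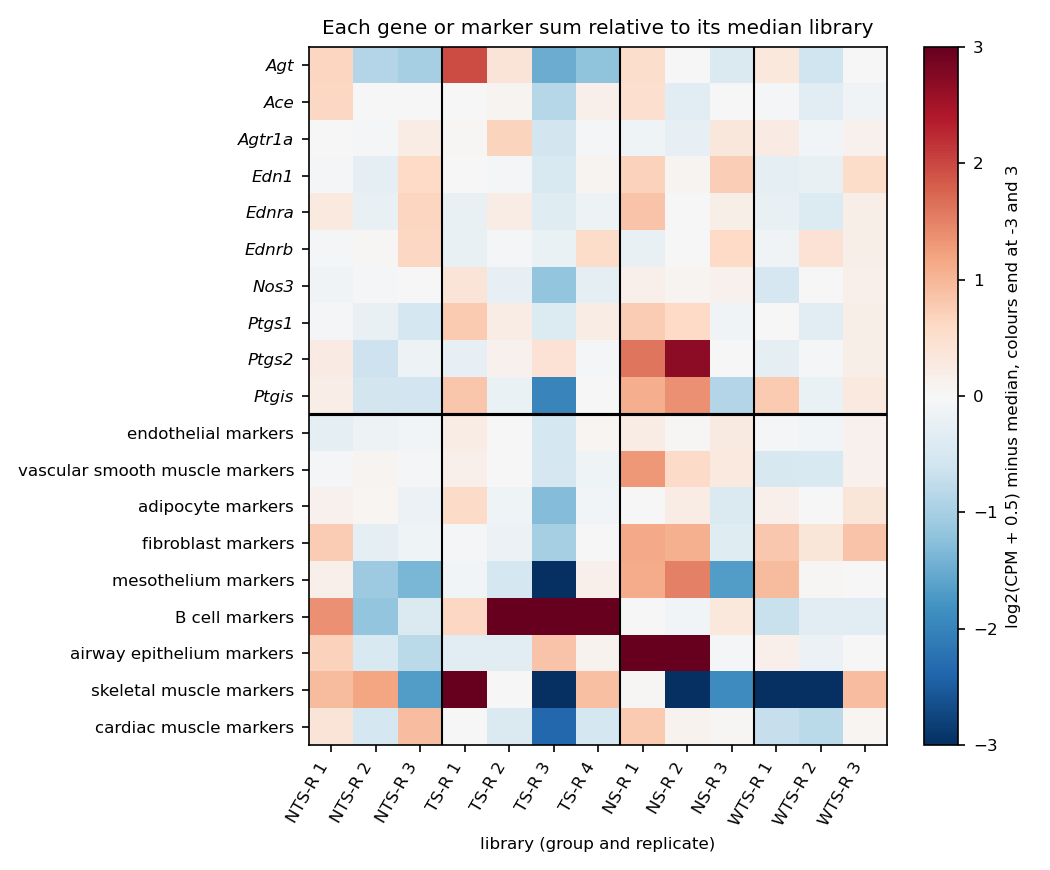
Level of each of the 10 genes (upper rows) and summed level of 9 marker lists (lower rows) in each of the 13 libraries, as log2(CPM + 0.5) minus the median library, with red above and blue below the median and colours that end at -3 and 3. NS-R 1 and NS-R 2 stand out in Ptgs2 and airway markers, TS-R 1 in Agt and skeletal muscle markers, and TS-R 3 is low in Nos3, Ptgis, adipocyte and mesothelial markers.

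The paralogs Ptgs1 and Ptgs2 ranged 2.54-fold and 19-fold between libraries, and the peptide precursors Edn1 and Agt 2.54-fold and 16.1-fold, so the promoter windows of these steady and variable pairs are given for comparison. Each window runs 5′ to 3′ from 250 bases before to 50 bases after the RefSeq gene start (RefSeq, GRCm38.p6). Capitals mark matches to 5 textbook motifs searched on both strands. These were the E-box CACGTG, the cyclic AMP element core CGTCA, the TATA box TATAAA, the GATA site TTATCT and the AP-1 site TGANTCA.
Ptgs2 promoter window, GRCm38.p6 chr1:150099781-150100080 on the plus strand: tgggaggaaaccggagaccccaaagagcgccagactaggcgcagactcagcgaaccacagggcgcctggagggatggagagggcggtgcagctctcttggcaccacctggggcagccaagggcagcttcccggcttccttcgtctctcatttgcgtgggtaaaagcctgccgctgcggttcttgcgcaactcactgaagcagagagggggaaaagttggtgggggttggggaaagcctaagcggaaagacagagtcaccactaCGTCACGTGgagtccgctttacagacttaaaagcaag
Ptgs1 promoter window, GRCm38.p6 chr2:36230176-36230475 on the plus strand: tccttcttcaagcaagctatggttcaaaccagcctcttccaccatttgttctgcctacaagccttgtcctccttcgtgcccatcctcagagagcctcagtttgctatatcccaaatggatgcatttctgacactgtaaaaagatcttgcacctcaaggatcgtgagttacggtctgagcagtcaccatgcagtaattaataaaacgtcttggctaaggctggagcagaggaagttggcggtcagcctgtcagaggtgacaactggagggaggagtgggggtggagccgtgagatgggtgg
Agt promoter window, GRCm38.p6 chr8:124569657-124569956 on the minus strand: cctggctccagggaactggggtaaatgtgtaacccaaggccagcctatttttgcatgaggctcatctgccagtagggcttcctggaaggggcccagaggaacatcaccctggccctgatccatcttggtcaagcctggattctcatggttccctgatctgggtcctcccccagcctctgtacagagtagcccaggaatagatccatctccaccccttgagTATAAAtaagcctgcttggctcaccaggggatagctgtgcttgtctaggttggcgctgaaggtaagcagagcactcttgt
Edn1 promoter window, GRCm38.p6 chr13:42301226-42301525 on the plus strand: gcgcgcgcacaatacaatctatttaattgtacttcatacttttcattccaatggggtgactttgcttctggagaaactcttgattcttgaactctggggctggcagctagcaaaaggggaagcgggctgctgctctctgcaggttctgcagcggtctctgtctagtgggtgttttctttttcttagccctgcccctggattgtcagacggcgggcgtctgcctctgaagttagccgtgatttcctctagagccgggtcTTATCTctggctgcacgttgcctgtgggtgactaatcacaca

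With positions counted from the RefSeq start, Ptgs2 held CGTCA at positions 14 to 18 and CACGTG at positions 17 to 22, which overlap. Agt held TATAAA at positions -30 to -25, and Edn1 held TTATCT at positions 9 to 14. The Ptgs1 window held none of the 5, and TGANTCA was found in none of the 4 windows. Over all 32851 promoter windows of this length in the table, 7.15% held CACGTG, 20.8% CGTCA, 13.6% TATAAA, 11.2% TTATCT and 7.81% TGANTCA, and each match is a description of letters only. Ptgs2 lies on chromosome 1 and Ptgs1 on chromosome 2.

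Levels of the genes were compared with one another across the 13 libraries on the log2(CPM + 0.5) scale, over 45 pairs. Ptgs1 and Ptgis had a Pearson r of 0.79 (permutation p = 0.00112, Benjamini-Hochberg adjusted 0.0286) and a Spearman rho of 0.80 (permutation p = 0.00187, adjusted 0.0841). Without the 2 libraries farthest from the median of Ptgs1, r was 0.74 over 11 libraries, and after the group means were taken out it was 0.93. Edn1 and Ednra, ligand and constrictor receptor, had an r of 0.79 (permutation p = 0.00127, adjusted 0.0286) and a rho of 0.68 (permutation p = 0.013, adjusted 0.113). Without the 2 farthest libraries in Edn1 their r was 0.78, and after the group means were taken out 0.76. Edn1 and Ednrb, the other ligand and receptor pair, had an r of 0.42 (permutation p = 0.149, adjusted 0.354) and a rho of 0.36 (permutation p = 0.224, adjusted 0.592), and r was 0.54 without the 2 farthest libraries and 0.47 after the group means were taken out. The difference between these pairs was not tested. The third highest pair, Agt and Ptgs1, had an r of 0.72 that missed the adjusted threshold (permutation p = 0.0043, adjusted 0.0645) and was 0.54 without the 2 farthest libraries. The 13 points share whatever composition each library has, TS-R 3 and the NS-R libraries included.

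Among 15188 genes with a mean of 1 CPM or more that passed the filter, the 3 most like each of the 10 were named by Pearson r over the 13 libraries, as a description. Ptgs2 was most like Cdhr3 (r = 0.96), a cadherin known from ciliated airway cells, Lrrc26 (0.96) and Aldh3a1 (0.95). Ptgis was most like Wfdc1 (0.97), Igfbp6 (0.97) and Upk1b (0.96), a uroplakin. Ednra was most like Ccdc141 (0.92), Kcnj5 (0.92), a subunit of the acetylcholine-gated potassium channel of the heart, and Chrm2 (0.91), the muscarinic receptor that acts on that channel. Nos3 was most like Fkbp14 (0.95), Hspa12b (0.91) and Hotairm1 (0.90).

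Ptgs1 was most like Cracr2b (0.97), B4galt2 (0.94) and Pqlc1 (0.94), and Agt was most like 2810454H06Rik (0.95), Tril (0.93) and Trib3 (0.92). The highest r was lower for the remaining 4 genes. Ace was most like Ecm2 (0.90), Slit3 (0.89) and Slc18b1 (0.85), and Ednrb was most like Myadm (0.90), Zfp948 (0.86) and Snx16 (0.84). Edn1 was most like Kcnq1 (0.87), Pgm5 (0.84) and Eml1 (0.82). Agtr1a was most like Cyp2d22 (0.82), 2900089D17Rik (0.79) and Ank (0.78). The r values of Ptgs2 and Ednra rest on libraries that also differ in airway and cardiac markers.

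The wider pathways were followed in lists of 16 further renin-angiotensin genes, of which 12 were tested, 10 endothelin genes (7 tested), 21 genes of nitric oxide and cyclic GMP (18 tested) and 20 prostanoid genes (17 tested). None of them passed an FDR of 0.05 in any comparison by edgeR. In TS-R against WTS-R the renin-angiotensin genes had a median log2 fold change of -0.33 with 3 of 12 lower and 0 higher at an unadjusted p under 0.05, where the median of all genes was 0.03 and 22.3% of all genes were marked in either direction. The endothelin, nitric oxide and prostanoid lists had medians of -0.03, 0.04 and 0.17, with 2, 2 and 1 genes higher and 1, 0 and 0 lower. In NTS-R against TS-R the renin-angiotensin median was 0.32 with 3 of 12 higher and 0 lower, and the prostanoid median was -0.28 with 2 of 17 higher and 5 lower, beside a median of -0.03 for all genes and 19.7% of all genes marked. The endothelin list there had a median of 0.25 (1 higher, 2 lower) and the nitric oxide list -0.08 (0 higher, 2 lower). TS-R enters the comparisons with WTS-R and NTS-R with opposite signs, so opposite medians are partly built in. Fibroblast markers had -0.98 and 0.61, adipocyte markers -0.46 and 0.53, and vascular smooth muscle markers 0.03 and 0.27. On plain library totals the median of all genes was 0.31 and -0.33, and the list medians on that scale are not given here.

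In the renin-angiotensin list, Ren1, which encodes renin, had 1.33, 0.207 and 0.0703 CPM in NTS-R, 0.369, 0.203, 0.0341 and 0.385 CPM in TS-R, 1.46, 0.969 and 0.177 CPM in NS-R and 2.70, 0.678 and 0.63 CPM in WTS-R. All TS-R libraries lay below all WTS-R libraries (21.6% of all genes had no overlap in this comparison), with a log2 fold change of -2.70 ± 0.94 (edgeR, FDR 0.118). Ren1 was near the limit of depth, with TS-R 2 at the level of 3 counts (0.203 CPM) and TS-R 3 below it (0.102 CPM). WTS-R 1 stood well above the other WTS-R libraries. Gna11, a G protein subunit that carries endothelin receptor signals, had 80.0, 82.0 and 75.6 CPM in NTS-R against 45.5, 63.8, 36.9 and 75.7 CPM in TS-R, with NTS-R 3 just inside the TS-R range and a difference of 0.79 ± 0.24 (edgeR, FDR 0.112). TS-R against WTS-R gave -0.58 ± 0.24 for Gna11 (edgeR, FDR 0.173).

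In the prostanoid list, groups of some named genes did not overlap, which was common in the whole table, at 21.6% of all genes in TS-R against WTS-R, 18% in NTS-R against TS-R, 11.8% in NS-R against WTS-R, with 13.1% for NTS-R against NS-R. Ptger4, a prostaglandin E receptor, had 5.68, 6.14 and 6.26 CPM in NTS-R, 11.7, 22.3, 23.7 and 14.3 CPM in TS-R, 24.9, 17.1 and 14.1 CPM in NS-R and 10.5, 4.57 and 16.3 CPM in WTS-R. Every NTS-R library lay below every TS-R and NS-R library, at -1.27 ± 0.37 against TS-R (edgeR, FDR 0.11) and -1.56 ± 0.39 against NS-R (edgeR, FDR 0.23). Tbxa2r, the thromboxane receptor, had 0.754, 1.73 and 1.06 CPM in NTS-R, 3.15, 6.22, 8.12 and 1.61 CPM in TS-R, 2.32, 1.42 and 1.42 CPM in NS-R and 1.02, 0.96 and 2.33 CPM in WTS-R. TS-R 2 and TS-R 3, the highest in Tbxa2r, were also the highest in T cell markers, at 280.1 and 731.3 CPM against 6.73 to 72.9 CPM elsewhere, and the part of these markers was not tested. Tbxa2r gave 1.45 ± 0.54 in TS-R against WTS-R (edgeR, FDR 0.139) and -1.69 ± 0.55 in NTS-R against TS-R (edgeR, FDR 0.128).

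Slco2a1, which takes prostaglandins up into cells, had 12.1, 11.0 and 8.51 CPM in NTS-R, 16.4, 20.4, 22.3 and 17.8 CPM in TS-R, 20.5, 16.1 and 21.8 CPM in NS-R and 10.6, 11.7 and 13.7 CPM in WTS-R. In CPM, without TMM, both TS-R and NS-R lay above WTS-R without overlap, and NTS-R lay below both. Fitted with TMM, TS-R against WTS-R gave 0.40 ± 0.20 (edgeR, FDR 0.248) and NTS-R against TS-R -0.57 ± 0.20 (edgeR, FDR 0.14). NS-R against WTS-R gave 0.68 ± 0.21 (edgeR, FDR 0.439) and NTS-R against NS-R -0.85 ± 0.21 (edgeR, FDR 0.217). The interaction for Slco2a1, -1.25 ± 0.29, missed the threshold (edgeR, FDR 0.125), as did that for Ptger4, -2.08 ± 0.53 (edgeR, FDR 0.142). Ptgfr, the prostaglandin F receptor, gave 1.22 ± 0.42 in NTS-R against TS-R (edgeR, FDR 0.144) and 1 ± 0.46 in NS-R against WTS-R (edgeR, FDR 0.934).

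Of the endothelin list, Edn3, the third endothelin peptide, had 0.116, 0.207 and 0.141 CPM in NTS-R, 5.91, 2.16, 1.77 and 0.0642 CPM in TS-R, 0.594, 0.171 and 0.413 CPM in NS-R and 0.0601, 0 and 0.819 CPM in WTS-R. In TS-R, 3 of 4 libraries were above all those of the other groups and TS-R 4 was not, with 2.82 ± 1.15 in TS-R against WTS-R (edgeR, FDR 0.173). Ecel1, a membrane peptidase related to the endothelin-converting enzymes, had 1.01, 0.744, 1.81 and 0.193 CPM in TS-R and no count in any NTS-R library. Against a floor of 3 counts over the 3 NTS-R libraries, the pooled level in NTS-R was at least 16.6-fold lower than the pooled 1.08 CPM of TS-R. With Ecel1 at that bound the endothelin median in NTS-R against TS-R is still 0.25, since it stays the lowest value. In TS-R against WTS-R, Ecel1 gave 2.42 ± 0.90 (edgeR, FDR 0.151).

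At an unadjusted p under 0.05, fewer genes of the whole table were marked in the comparisons with NS-R. The renin-angiotensin and endothelin lists also had fewer marked there. The prostanoid list had more marked in both than in TS-R against WTS-R, and the nitric oxide list had as many in NTS-R against NS-R. In NS-R against WTS-R the medians of the renin-angiotensin, endothelin, nitric oxide and prostanoid lists were 0.04, 0.30, 0.31 and 0.24, with 0, 0, 1 and 2 genes higher and 1, 0, 0 and 0 lower, beside a median of 0.01 for all genes and 5.31% of them marked. In NTS-R against NS-R they were -0.11, -0.07, -0.30 and -0.26, with 1, 0, 0 and 1 higher and 0, 1, 2 and 3 lower, beside a median of -0.01 and 6.36% of all genes marked. Mrvi1, a target of the cyclic GMP kinase in smooth muscle, had 11.3, 10.2 and 10.5 CPM in NTS-R, 16.9, 15.9, 11.4 and 12.2 CPM in TS-R, 19.8, 13.3 and 18.8 CPM in NS-R and 11.5, 10.1 and 9.96 CPM in WTS-R. Every NS-R library lay above those of WTS-R (11.8% of all genes had no overlap) and NTS-R (13.1%), while TS-R 1 and TS-R 2 lay above NS-R 2. The differences were 0.69 ± 0.23 in NS-R against WTS-R (edgeR, FDR 0.538) and -0.65 ± 0.23 in NTS-R against NS-R (edgeR, FDR 0.521). The sum of vascular smooth muscle markers, 9 of 9 detected in every library, was also higher in NS-R. It was 373.3 to 404.4 CPM in NTS-R, 271.1 to 430.4 CPM in TS-R, 473.3 to 945.8 CPM in NS-R and 276.7 to 421.5 CPM in WTS-R. Of the single markers, Myh11 separated in the same way, but others did not. In NS-R 3, Synpo2 (25.2 CPM) lay below NTS-R (31.1 to 41.3 CPM) and Acta2 (142.7 CPM) below WTS-R 3 (158.6 CPM). How often sums of other genes separate was not counted. The part of these markers in the Mrvi1 difference was not tested. Atp6ap2, the prorenin receptor, gave -0.30 ± 0.13 in NS-R against WTS-R (edgeR, FDR 0.905) and 0.35 ± 0.13 in NTS-R against NS-R (edgeR, FDR 0.612). In the interaction the list medians were 0.27, 0.15, -0.18 and -0.45, with 1, 1, 0 and 1 genes higher and 0, 2, 4 and 5 lower, beside a median of -0.06 for all genes and 18.3% of them marked.

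**Figure D4:**
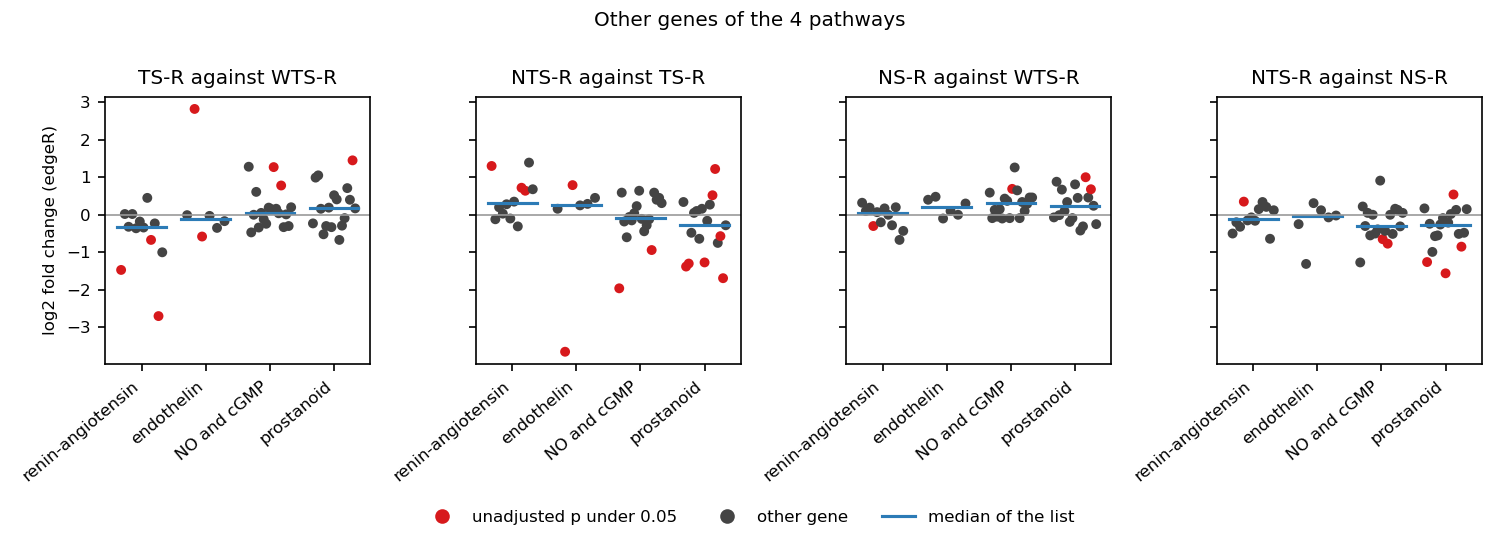
Log2 fold change of each tested gene of the 4 pathway lists (points, red at an unadjusted p under 0.05) with the median of each list (blue line), in the 4 pairwise comparisons of the edgeR fit. The renin-angiotensin median is -0.33 for TS-R against WTS-R and 0.32 for NTS-R against TS-R, comparisons that TS-R enters with opposite signs. Ecel1, at 0 in every NTS-R library, is left out of the plot and its medians.

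Some counts can be split between overlapping genes, since the strand setting of the counting is not given in the sources used here. Nos3 shares exon sequence with Atg9b on the other strand, which stood at 1.02 to 3.76 CPM, and with Gm15587, at 0.18 to 1.76 CPM. Ptgis shares it with 1110018N20Rik, at 1.26 to 3.31 CPM, which bears most on TS-R 3, where Ptgis itself was at 3.55 CPM. Ednra shares it with 4933431K23Rik, at 0.102 to 1.06 CPM.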

How the data were processed

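The deposited file holds raw counts per gene for 13 libraries of perivascular adipose tissue. Per the labels' protocols, RNA was extracted with TRIzol and paired-end libraries were made with an ABclonal mRNA-seq kit. The authors used HISAT2 and featureCounts, per the submitters' processing notes, while tool versions, the genome build, the annotation and strand use are not stated in the sources used here. Groups were read from the sample titles. Of 34013 genes, 33302 had a symbol in the reference table, and the 711 without one stayed in the fit. The edgeR 4.0.16 quasi-likelihood test (R 4.3.3, TMM scaling, filterByExpr, 17270 genes, all 13 libraries in 1 fit) gave fold changes and Benjamini-Hochberg FDR over all genes tested, with an FDR of 0.05 as threshold. All 10 genes passed the filter. The steps were tested on simulated data. Printed CPM are counts over the library total, without TMM, whose factors were between 0.868 and 1.212. Alternatives were DESeq2 1.42.0, limma 3.58.1 (voom with quality weights), RLE scaling, no filter, the replicate number as a block, each library left out, NS-R 3 and TS-R 3 left out, and only the groups compared. The pair NS-R 1 and NS-R 2 left out and plain library totals were added after seeing the data. Named genes were the 10, in each comparison the pathway genes with the lowest unadjusted p, to at most 3 higher and 3 lower, and the 3 genes most like each of the 10. One gene that this rule names is not reported here. Members and lists were chosen with earlier results of these data known. Of the pathway names, Irag1 and Prxl2b had no match. Exon lengths came from the GENCODE annotation of GRCm38.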

Additional observations from a re-analysis of the deposited data

How the results depend on the processing

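Of 1090 fold changes of the 10 genes under 22 alternatives, 1010 kept direction and side of the threshold, 8 passed it in the same direction, none fell back, and 72 changed sign, in 26 of the 50 results, none of them called in either fit. The number of genes called, 0 in all 5 comparisons, became 1 for NS-R against WTS-R by DESeq2 (1 without NS-R 3 and TS-R 3), while for NTS-R against NS-R it became 1 by DESeq2 (3 without NS-R 3 and TS-R 3). Leaving out single libraries gave 0 to 1 in these 2 comparisons, the 1 being without NS-R 3, and 0 in the others. The share of all genes called in the fits with libraries left out is not given here. The cause of these changes was not tested. The replicate numbers are not said to pair the libraries. Same-numbered libraries had deviations correlated between -0.23 and 0.28 over 18 pairs, 6 of them over 0.1, and 5 of 13 libraries matched their own number best. These correlations also carry the tissue composition of each library, so they cannot decide whether the numbers pair samples. With the replicate number as a block, 0 genes were called in every comparison, and Ptgs1 was -0.06 in TS-R against WTS-R and Ptgis 0.18 in the interaction.

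Plain library totals put the median of all genes at 0.31 in TS-R against WTS-R, -0.33 in NTS-R against TS-R and -0.41 in the interaction, beside 0.03, -0.03 and -0.06 with TMM. On that scale TS-R against WTS-R was 0.03 for Ace, 0.00 for Agtr1a, 0.02 for Ednra and 0.21 for Ptgs2, NTS-R against TS-R was -0.03 for Agtr1a and -0.24 for Ptgis, and the interaction was -0.26 for Edn1, -0.15 for Ednra and -0.05 for Nos3. With limma's quality weights TS-R against WTS-R was -0.19 for Agt, 0.07 for Agtr1a, 0.08 for Ednra and 0.14 for Ptgs2, NTS-R against TS-R was -0.20 for Agtr1a, and the interaction was -0.50 for Edn1, -0.43 for Ednra and 0.06 for Ptgis. Without NS-R 1 and NS-R 2, which leaves 1 NS-R library, NS-R against WTS-R was -0.29 for Agt, 0.39 for Agtr1a, 0.56 for Ednrb and -1.13 for Ptgis. NTS-R against NS-R was then 0.11 for Agt, -0.39 for Agtr1a, 0.01 for Ednra, -0.48 for Ednrb and 0.51 for Ptgis, and the interaction -0.12 for Agtr1a, -0.32 for Edn1, -0.09 for Ednrb and 1.17 for Ptgis. Without NS-R 3 and TS-R 3, NTS-R against TS-R was 0.12 for Ptgs2 and -0.30 for Ptgis.

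Leaving out each library in turn gave these ranges where a sign changed. TS-R against WTS-R ran between -0.79 and 0.75 for Agt, -0.15 and 0.21 for Ptgs1, and -0.27 and 0.10 for Ptgs2. NTS-R against TS-R ran between -1.40 and 0.61 for Agt, -0.36 and 0.22 for Ptgs2, and -0.27 and 0.48 for Ptgis. NS-R against WTS-R ran between -0.13 and 0.36 for Agt, -0.42 and 0.03 for Agtr1a, -0.41 and 0.21 for Ednrb, and -0.01 and 0.79 for Ptgis. NTS-R against NS-R ran between -0.04 and 0.42 for Agtr1a, -0.34 and 0.20 for Ednra, and -0.19 and 0.49 for Ednrb. The interaction ran between -1.50 and 0.47 for Agt, -0.33 and 0.29 for Edn1, -0.09 and 0.43 for Ednra, and -0.75 and 0.07 for Ptgis. Fits of only the groups compared gave no value for the interaction, which uses all 4. Depth limits Ptgs2 most, at 7 to 161 counts per library.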
